A study of Homo sapiens with 29 samples.

Results

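The 10 genes described here report on Wnt signalling or mark intestinal stem cells, and were followed in HCT116 cells under 4 treatments. They are 10 of the 38148 genes of the RNA table: AXIN2, NKD1, DKK1, RNF43, ZNRF3, LGR5, ASCL2, LEF1, TCF7 and SOX9. They were chosen by gene symbol, and the anti-crotonyllysine regions that carry the same symbol gave 32 of 49916 regions. HCT116 is a human colorectal carcinoma line that carries an activating mutation of beta-catenin. In the RNA libraries 7 of the 10 genes passed the filter on low values (at least 0.25 RPM, reads scaled to library depth, in at least 4 of 16 libraries), and LGR5, ASCL2 and LEF1 did not.

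The study joined knockdown of DAXX, which deposits the histone variant H3.3, with crotonate, a short-chain fatty acid whose acyl group is found on histone lysines. The 4 RNA groups, each of 4 libraries, were cells given 25 nM non-targeting siRNA, the same siRNA with 10 mM crotonate, 35 nM siRNA against DAXX, and DAXX siRNA with 10 mM crotonate. The ChIP libraries came from a pan-crotonyllysine antibody (Kcr, PTM-501) in groups of 4, 2, 4 and 2 in the same order, with 1 input library from cells given DAXX siRNA. The siRNA dose differs with its target, so dose and target cannot be told apart, and the sources give both 18 h and 48 h for the treatment. The labels do not say that the replicates are separate cultures, so p-values measure the spread between these libraries.

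Wnt ligands bind Frizzled receptors with LRP5 or LRP6 and stop the destruction complex from marking beta-catenin for degradation, and beta-catenin then drives transcription with TCF and LEF factors. Several targets feed back on the pathway: AXIN2 is a scaffold of the destruction complex, NKD1 acts on Dishevelled, DKK1 blocks LRP5 and LRP6, and RNF43 and ZNRF3 are ubiquitin ligases that remove Frizzled from the cell surface. R-spondins acting through LGR receptors restrain these ligases, and the pathway maintains LGR5-positive stem cells at the base of the intestinal crypt.

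The reads recovered from the RNA table summed over genes to 35003617 to 55128007 per library. DAXX transcript was 103 ± 1.60 RPM with non-targeting siRNA and 24.6 ± 2.06 RPM with DAXX siRNA (mean ± SD, n = 4), and 100.3 ± 3.38 and 19.3 ± 4.67 RPM with crotonate. The 7 epithelial markers summed to 3849 to 5008 RPM per library, while the fibroblast genes DCN and LUM had no read. Of the 5 immune markers, the leukocyte gene PTPRC did not exceed 0.103 RPM, but CD14 reached 0.268 RPM and LYZ 0.379 RPM. The endothelial gene VWF, the highest of 4 endothelial markers, had 0.127 to 1.124 RPM. The filter was passed by 1 immune and 2 endothelial markers. COL1A1 was the one fibroblast marker above the filter, at 11.1 to 26.9 RPM, and the sum of the 6 fibroblast markers ranged over 11.2 to 21.1, 17.4 to 22.8, 11.9 to 19.0 and 19.1 to 27.0 RPM in the groups in the order above. COL1A1 was called higher with crotonate and DAXX siRNA (log2 change 0.66, limma adjusted p = 0.0120), also after centring and quantile scaling. The endothelial gene PECAM1, at no more than 0.495 RPM, was called higher with crotonate and non-targeting siRNA (2.14, limma adjusted p = 0.0464), but not after either scaling. With non-targeting and DAXX siRNA its means were 0.0987 and 0.0791 RPM without crotonate and 0.376 and 0.311 RPM with it. It passed the filter only through its crotonate libraries, so this call carries little weight. Of the epithelial markers, CDH1 was called higher with crotonate under non-targeting siRNA (0.32, limma adjusted p = 0.00866) and DAXX siRNA (0.29, 0.0174). EPCAM was called lower with crotonate and DAXX siRNA (-0.27, adjusted p = 0.0191). With centred values, 0 of the 7 were called higher and 3 lower under either siRNA. With quantile scaling CDH1 stayed called with non-targeting siRNA only, and EPCAM stayed called. The part of these genes in the results was not tested. RPM is not divided by gene length, so levels are compared only within a gene. In bulk RNA, fewer cells of a type and less RNA per cell cannot be told apart.

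Crotonate raised the feedback inhibitors NKD1 and DKK1 under either siRNA, and the 2 membrane ligases RNF43 and ZNRF3 were not called. With non-targeting siRNA, 5 of the 7 tested genes were called higher (NKD1, DKK1, TCF7, AXIN2 and SOX9) and 0 lower, where a call is an adjusted p under 0.05 in limma with Benjamini-Hochberg adjustment over the 17973 genes tested. Among all tested genes 13.1% were called higher and 2.34% lower. With DAXX siRNA, 3 of the 7 were called higher (NKD1, DKK1 and TCF7) and 0 lower, against 13% higher and 2.41% lower of all genes. The median log2 change over the 7 genes was 0.34 and 0.25 with the 2 siRNAs, beside 0.074 and 0.061 over all genes. These medians hold only for genes that passed the filter.

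**Figure D1:**
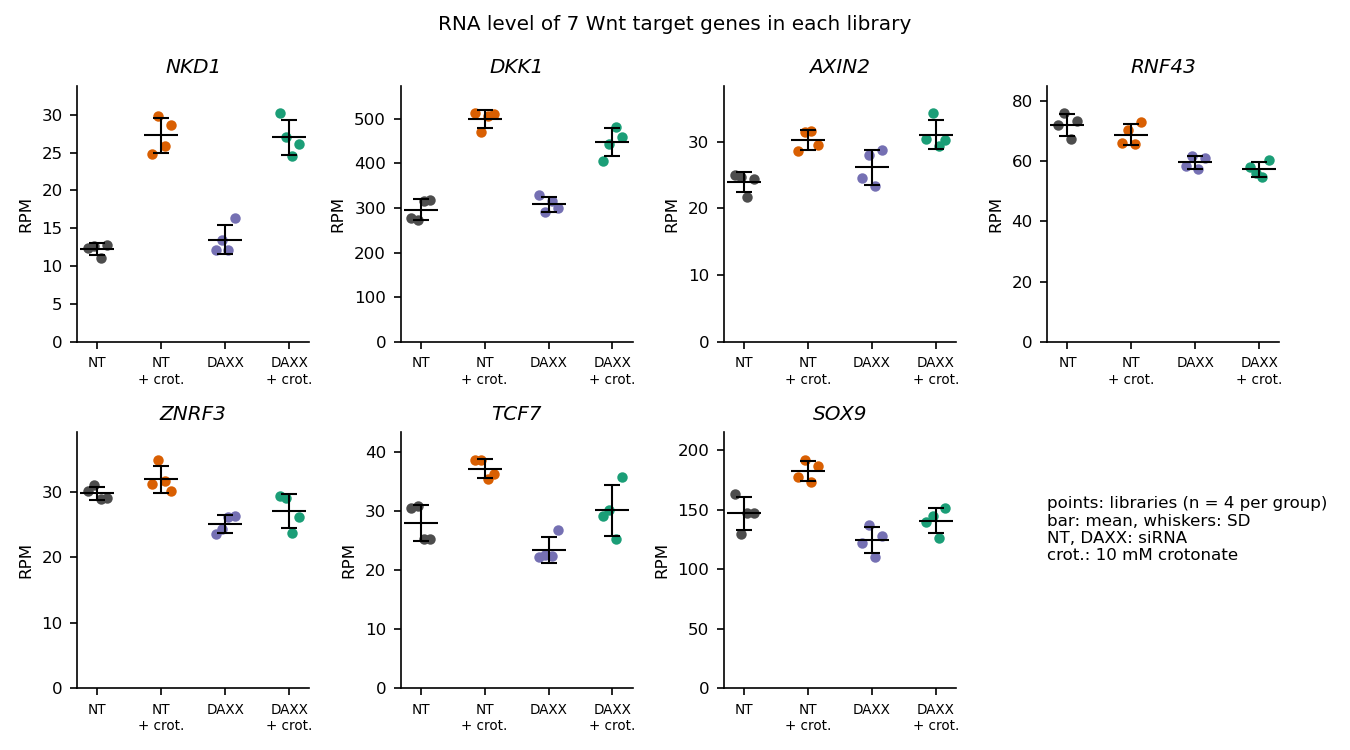
RNA level in RPM (vertical axes, from 0) of the 7 tested genes in every library of the 4 groups, with the mean and SD (n = 4). NKD1 and DKK1 libraries with crotonate lie above all libraries without it, while RNF43 and ZNRF3 libraries with DAXX siRNA lie below those with non-targeting siRNA at the same crotonate dose.

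NKD1, the inhibitor that acts on Dishevelled (ENSG00000140807, GRCh38 chromosome 16, 50548396 to 50649249, plus strand), showed the largest crotonate change of the 7 tested genes. Its 4 libraries with non-targeting siRNA held 12.4, 12.6, 11.1 and 12.8 RPM, and those with crotonate 24.9, 29.8, 25.9 and 28.6 RPM. With DAXX siRNA the values were 12.2, 13.5, 12.1 and 16.3 RPM without crotonate and 30.2, 27.0, 24.6 and 26.2 RPM with it. NKD1 was 2.23-fold higher with crotonate under non-targeting siRNA and 2.01-fold higher under DAXX siRNA, and the libraries with and without it did not overlap. The log2 fold change was 1.16 (SE 0.102, limma adjusted p = 3.07e-07) with non-targeting siRNA and 1.00 (SE 0.102, adjusted p = 1.62e-06) with DAXX siRNA.

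DKK1, the secreted blocker of LRP5 and LRP6 (ENSG00000107984, chromosome 10, 52314281 to 52318042, plus strand), followed the same direction. It stood at 278, 274, 315 and 317 RPM with non-targeting siRNA and at 512, 470.2, 506 and 510.0 RPM after crotonate. With DAXX siRNA it stood at 329, 291, 315 and 299 RPM, and at 406, 443, 481 and 459 RPM after crotonate. Every crotonate library exceeded every library without it. The log2 fold change was 0.76 (SE 0.072, adjusted p = 6.65e-07) with non-targeting siRNA and 0.54 (adjusted p = 3.41e-05) with DAXX siRNA in limma. PRKG1-AS1, an antisense gene that overlaps the first bases of DKK1 on the other strand, went from 39.9 to 69.2 RPM (0.80, adjusted p = 8.24e-06). Whether strand was used in counting is not given in the sources used here, so reads from this overlap cannot be assigned to 1 of the 2 genes. The same limit holds for TCF7, whose end overlaps SKP1 on the other strand (145 to 209.6 RPM). Genes also overlap AXIN2 (AC004805.1, same strand, 7.99 to 11.5 RPM) and RNF43 (SUPT4H1 and AC004687.2, same strand, and TSPOAP1-AS1, other strand). How reads in such overlaps were assigned is not given.

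AXIN2, the feedback scaffold (ENSG00000168646, chromosome 17, 65528563 to 65561648, minus strand), moved less. Its libraries held 24.9, 24.7, 21.8 and 24.4 RPM with non-targeting siRNA and 28.5, 31.4, 31.6 and 29.5 RPM after crotonate, with no overlap. With DAXX siRNA they held 24.5, 28.0, 23.4 and 28.8 RPM, and 30.3, 34.2, 29.4 and 30.3 RPM after crotonate, again with no overlap. The log2 change was 0.34 (SE 0.085, adjusted p = 0.00934) and 0.25 (SE 0.085, adjusted p = 0.0520), so in limma AXIN2 was called with non-targeting siRNA and not with DAXX siRNA. With DAXX siRNA 5 of 16 alternative fits did call it (lowest adjusted p = 0.0310), and the difference between the siRNAs was not called (-0.087, adjusted p = 0.995).

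The crotonate effect on RNF43 and ZNRF3 was small under either siRNA. RNF43 (ENSG00000108375, chromosome 17, 58352500 to 58417595, minus strand) changed by -0.068 (95% interval -0.21 to 0.072, limma adjusted p = 0.562) with non-targeting siRNA and by -0.056 (-0.20 to 0.084) with DAXX siRNA. ZNRF3 (ENSG00000183579, chromosome 22, 28883592 to 29057487, plus strand) changed by 0.099 (-0.072 to 0.27, adjusted p = 0.478) and by 0.11 (-0.065 to 0.28). Crotonate libraries overlapped the untreated ones for both ligases. These intervals end below the NKD1 and DKK1 estimates.

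Crotonate calls played no part in the choice of promoters to print. TCF7, also called with crotonate under both siRNAs, and LEF1 had windows only inside the gene of the RNA table. The promoters of DKK1 and RNF43 are printed because a window of each reaches back past its gene start in that table. Both are RefSeq sequence on GRCh38.p14, 5′ to 3′, and stop at the base before the gene start of the RNA table; capitals mark words of CTTTG followed by 2 letters that are each A or T, on either strand, the core that TCF and LEF factors bind.
DKK1 (chr10:52314031-52314280, plus strand): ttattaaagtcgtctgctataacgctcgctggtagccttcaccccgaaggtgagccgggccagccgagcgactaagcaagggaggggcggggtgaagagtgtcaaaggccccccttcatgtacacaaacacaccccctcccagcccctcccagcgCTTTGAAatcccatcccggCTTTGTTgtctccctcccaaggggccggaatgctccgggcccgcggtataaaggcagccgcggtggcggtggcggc
RNF43 (chr17:58417596-58417784, minus strand): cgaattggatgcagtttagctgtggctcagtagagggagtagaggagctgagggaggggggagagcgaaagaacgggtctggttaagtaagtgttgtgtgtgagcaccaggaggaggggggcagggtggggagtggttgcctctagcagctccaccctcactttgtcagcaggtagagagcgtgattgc
The DKK1 stretch of 250 bases holds 2 words, 95 and 76 bases before the start, and the RNF43 stretch of 189 bases holds none. Of 35116 RefSeq promoter windows of 300 bases, 13.8% hold a word and 1.58% hold 2 or more. Windows of 4 of the 10 genes (6 windows) were in the table: the 2 RNF43 windows, the LEF1 window and the upstream TCF7 window held none, and the downstream TCF7 window held 1. A match is a run of letters and not a measured binding site. The DKK1 window lies 5221 bases from the nearest Kcr region, while the RNF43 and TCF7 windows lie inside regions.

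Among the transcription factors, TCF7, a partner of beta-catenin (ENSG00000081059, chromosome 5, 134114681 to 134151865, plus strand), held 30.5, 30.8, 25.3 and 25.3 RPM with non-targeting siRNA and 38.6, 38.6, 35.3 and 36.2 RPM after crotonate. With DAXX siRNA it held 22.2, 22.5, 22.4 and 26.8 RPM, and 29.2, 30.1, 25.3 and 35.8 RPM after crotonate. The groups did not overlap with non-targeting siRNA and did overlap with DAXX siRNA. Its log2 change was 0.42 (SE 0.103, adjusted p = 0.00835) and 0.35 (SE 0.103, adjusted p = 0.0243) in limma. Under DAXX siRNA the call was lost in 5 of 8 fits that left out 1 library.

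SOX9, a factor of crypt base and Paneth cells (ENSG00000125398, chromosome 17, 72121020 to 72126416, plus strand), held 164, 130.2, 147 and 148 RPM with non-targeting siRNA and 177, 192, 174 and 187 RPM after crotonate. With DAXX siRNA it held 122, 137, 111 and 128 RPM, and 140.2, 145, 127 and 152 RPM after crotonate. The groups separated with non-targeting siRNA and overlapped with DAXX siRNA. The log2 change was 0.31 (SE 0.082, adjusted p = 0.0124) and 0.18 (SE 0.082, adjusted p = 0.169) in limma. With non-targeting siRNA the libraries with and without crotonate did not overlap in 5 of the 7 tested genes, all on the higher side. Among all tested genes this was 16% on the higher side and 4.11% on the lower side. The 5 genes are those called from the same libraries, so the separation adds no further support. With DAXX siRNA the libraries did not overlap for NKD1, DKK1 and AXIN2, and for 14.7% of all tested genes on the higher side and 3.99% on the lower side.

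The crotonate calls of AXIN2, TCF7 and SOX9 depended on how libraries were scaled, and those of NKD1 and DKK1 did not. Crotonate moved the median gene up by 0.074, and centring each library on its median gene moved that median to -0.055. After centring, NKD1 (1.03) and DKK1 (0.63) were still called higher with non-targeting siRNA, while AXIN2 (0.21, adjusted p = 0.0914), TCF7 (0.29, adjusted p = 0.0563) and SOX9 (0.18, adjusted p = 0.122) were not. RNF43 was then called lower (-0.20, adjusted p = 0.0457) and ZNRF3 turned to -0.030. With quantile scaling TCF7 and SOX9 remained called and AXIN2 did not (0.24, adjusted p = 0.0618), again with non-targeting siRNA. With DAXX siRNA the TCF7 call was lost both after centring (adjusted p = 0.119) and with quantile scaling (0.0938). Of all calls, 84.8% were higher with the deposited scaling, 46.2% after centring and 58.5% with quantile scaling; with DAXX siRNA the shares were 84.4%, 50.4% and 63.0%.

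**Figure D2:**
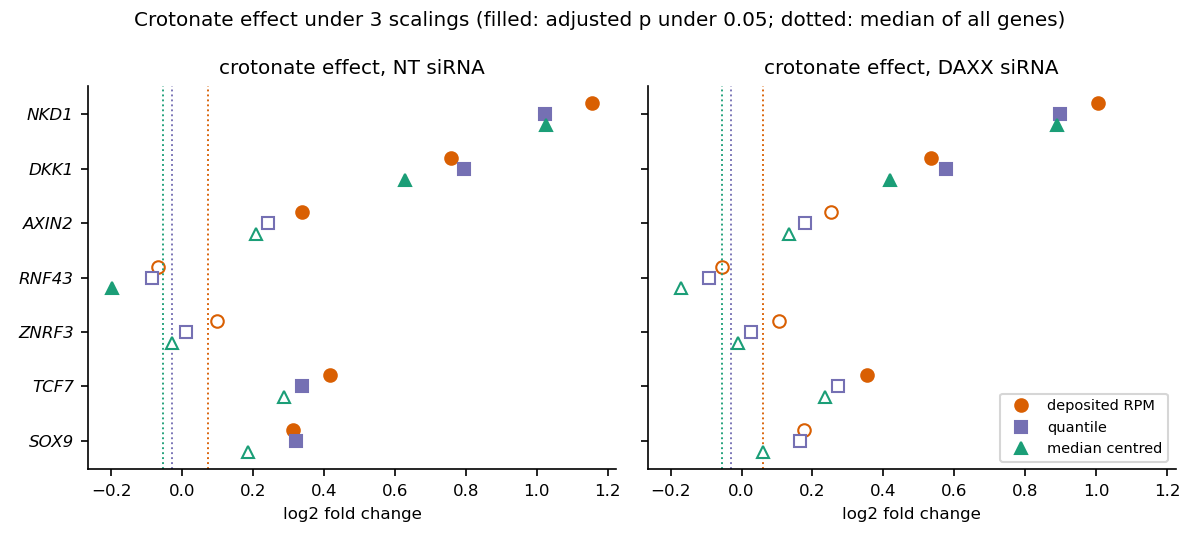
Log2 fold change with crotonate (horizontal axes) of the 7 tested genes under the deposited RPM, quantile and median-centred scalings, with each siRNA. Filled symbols have an adjusted p under 0.05, and dotted lines mark the median of all tested genes; NKD1 and DKK1 are filled in every case.

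With DAXX siRNA, SOX9 was lower in the presence of crotonate, and both ligases and TCF7 gave negative changes that were not called in a single comparison. Without crotonate 0 of the 7 genes were called (0.1% of all genes were called higher and 0.306% lower), with 4 of 7 at an unadjusted p under 0.05 (12.2% of all genes). With crotonate 0 were called higher and 1 lower (0.389% and 0.668% of all genes), and 5 of 7 were at an unadjusted p under 0.05 (10.9% of all genes). In each of the 2 comparisons, which share no library, RNF43, ZNRF3, TCF7 and SOX9 had negative log2 changes between -0.24 and -0.38.

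RNF43 held 72.0, 75.9, 67.3 and 73.4 RPM with non-targeting siRNA and 58.3, 61.8, 57.4 and 61.0 RPM with DAXX siRNA. With crotonate it held 66.0, 70.4, 65.9 and 73.2 RPM with non-targeting siRNA and 58.0, 56.1, 54.9 and 60.6 RPM with DAXX siRNA. Every DAXX siRNA library lay below every non-targeting library at the same crotonate dose. The log2 change was -0.27 (SE 0.067, adjusted p = 0.0860) without crotonate and -0.26 (SE 0.067, adjusted p = 0.0651) with it, neither of which is a call in limma. AC004687.2, a gene on the same strand that spans RNF43, changed by -0.092 and -0.15 (adjusted p = 0.556 and 0.336).

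ZNRF3 held 30.1, 31.0, 29.0 and 29.0 RPM with non-targeting siRNA and 23.5, 24.3, 26.2 and 26.3 RPM with DAXX siRNA. With crotonate it held 31.2, 34.9, 31.6 and 30.1 RPM with non-targeting siRNA and 29.3, 29.1, 23.7 and 26.2 RPM with DAXX siRNA. The groups did not overlap at either crotonate dose, as in 3.46% and 4.94% of all tested genes on the lower side (2.69% and 3.55% on the higher side). The log2 change was -0.25 (SE 0.082, adjusted p = 0.229) and -0.24 (adjusted p = 0.211) in limma.

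SOX9 was the one gene of the set called for DAXX siRNA in a single comparison. With crotonate its mean fell from 183 ± 8.58 to 141 ± 10.5 RPM (log2 change -0.38, SE 0.082, adjusted p = 0.0273), and all libraries with DAXX siRNA lay below those with non-targeting siRNA. The call was lost when any of 7 of the 8 libraries was left out, with adjusted p of 0.0610 to 0.105. Without crotonate the means were 147 ± 13.7 and 125 ± 11.2 RPM (-0.24, adjusted p = 0.255), and the libraries overlapped. TCF7 gave -0.25 (adjusted p = 0.339) without crotonate and -0.31 (adjusted p = 0.191) with it.

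A contrast that averages the DAXX siRNA effect over both crotonate doses was added after the RNF43 and ZNRF3 values were seen. It called 4 of the 7 genes lower and 0 higher, against 2.23% lower and 1.57% higher of all genes. RNF43 changed by -0.27 (SE 0.047, adjusted p = 0.00217), SOX9 changed by -0.31 (SE 0.058, adjusted p = 0.00420), ZNRF3 by -0.25 (SE 0.058, adjusted p = 0.0201) and TCF7 by -0.28 (SE 0.073, adjusted p = 0.0344) in limma. RNF43 and SOX9 were called in all 23 alternative fits. ZNRF3 lost its call without library 1 of DAXX siRNA (adjusted p = 0.0507) or without library 2 of non-targeting siRNA with crotonate (0.0567), and TCF7 lost it in 12 of 23.

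Of the genes that feed back on the pathway, the averaged contrast called RNF43 and ZNRF3 lower and did not call NKD1, DKK1 or AXIN2. Because the contrast was added after the RNF43 and ZNRF3 values were seen, their calls are not an independent test. NKD1 changed by 0.060 (95% interval -0.091 to 0.21), DKK1 by -0.050 (-0.16 to 0.057) and AXIN2 by 0.080 (-0.046 to 0.21). Their limma adjusted p-values were 0.721, 0.665 and 0.527. The interaction, a difference of the DAXX siRNA effects at the 2 crotonate doses (crotonate minus none), was called for 0 of the 7 genes and for 0% of all genes in limma, and for 0 with limma-voom. One of the 7 and 433 of all genes (2.41%) had an unadjusted p under 0.05. That gene was DKK1, at -0.22 (95% interval -0.43 to -0.0088, adjusted p = 0.995).

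**Figure D3:**
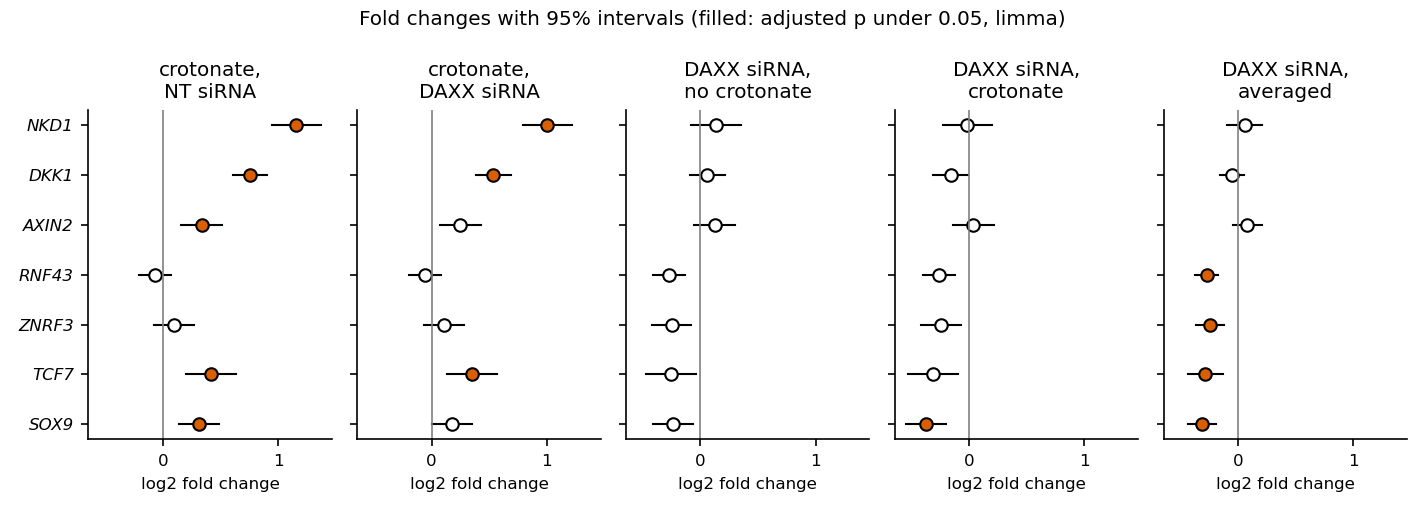
Log2 fold changes (horizontal axes) with 95% intervals for the 7 tested genes in the crotonate and DAXX siRNA comparisons; filled points have an adjusted p under 0.05 in limma. NKD1 and DKK1 lie to the right with crotonate, and RNF43, ZNRF3, TCF7 and SOX9 lie to the left of 0 in each DAXX siRNA panel.

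The stem cell genes LGR5 and ASCL2 and the TCF partner LEF1 had almost no reads, so no change was tested. LGR5, the R-spondin receptor (chromosome 12, 71439798 to 71586310, plus strand), had 22 reads in all 16 libraries. Library 3 of non-targeting siRNA with crotonate held 12 of them and library 4 of non-targeting siRNA held 5, and every other library had 0 or 1. ASCL2, a stem cell transcription factor (chromosome 11, 2268495 to 2270952, minus strand), had 10 reads, 3 and 7 in libraries 1 and 3 of non-targeting siRNA with crotonate. LEF1 (chromosome 4, 108047545 to 108168956, minus strand) had 1 read, in library 3 of DAXX siRNA with crotonate. A count of 0 allows up to 3 reads, or 0.0555 to 0.0876 RPM by library, for counting error only. TSPAN8, which overlaps LGR5 on the other strand, ranged from 0 to 0.499 RPM.

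Other genes of the pathway were read from lists of ligands, receptors, antagonists, cytoplasmic and nuclear components, targets, stem cell genes and differentiation genes. With crotonate and non-targeting siRNA, 9 of 16 receptor genes tested were called higher and 0 lower (median log2 change 0.35), and 9 of 15 further target genes higher and 0 lower (median 0.62). With DAXX siRNA and crotonate these counts were 9 of 16 and 8 of 15. After centring they were 8 and 9 with non-targeting siRNA, with 2 targets then lower (CD44 and BMP4), and 6 and 8 with DAXX siRNA, with 1 target lower (BMP4). The all-gene share of higher calls was 13.1% and 13% in these comparisons. After centring 8.11% of all genes were called higher and 9.46% lower with non-targeting siRNA, and 8.43% and 8.28% with DAXX siRNA.

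Among receptors, LGR4, another R-spondin receptor, rose from 8.05 ± 1.25 to 14.99 ± 2.23 RPM (log2 change 0.90, adjusted p = 5.80e-05, n = 4, limma). The kinase-like receptor ROR1 (0.86) and the Frizzled genes FZD4 (0.66) and FZD1 (0.64) also rose. Of the targets, the ephrin receptor gene EPHB2, which positions cells along the crypt, rose from 32.3 ± 3.89 to 59.7 ± 3.46 RPM (0.89, adjusted p = 7.77e-07, limma). ID2 (0.84), the transcription factor gene SP5 (1.24) and TBX3 (0.54) rose as well.

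Ligand genes gave 9 of 18 higher and 1 lower with non-targeting siRNA, and 7 higher and 1 lower with DAXX siRNA. Among all genes 13.1% were higher and 2.34% lower with non-targeting siRNA, and 13% and 2.41% with DAXX siRNA. WNT11 rose from 1.13 ± 0.276 to 3.99 ± 0.353 RPM (1.85, limma adjusted p = 0.000188), WNT3A by 1.28 and WNT7A by 1.34, while WNT16 fell from 28.9 ± 2.78 to 20.2 ± 1.60 RPM (-0.51). Of 6 antagonist genes tested, 4 were higher under either siRNA: NOTUM, a deacylase of Wnt proteins (0.70), the DKK co-receptor genes KREMEN1 (0.63) and KREMEN2 (0.47), and TRABD2A (0.61). KREMEN2 lost the call with non-targeting siRNA under both centring (adjusted p = 0.0768) and quantile scaling (0.0974), and TRABD2A under quantile scaling (0.0637).

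The destruction complex and other cytoplasmic components gave 1 of 18 higher (NKD2, 0.48) and 1 lower (AMER1, -0.40) with non-targeting siRNA. Beside the counts of this and the next lists, 13.1% of all genes were higher and 2.34% lower. NKD2 lost its call after centring (adjusted p = 0.0894) and under quantile scaling (0.139). Nuclear components gave 3 of 13 higher and 1 lower, among them the co-repressor gene TLE2 (0.58) and the co-activator gene BCL9L (-0.39). After centring the nuclear list gave 2 higher and 3 lower, beside 8.11% and 9.46% of all genes. Further stem cell genes gave 4 of 10 higher, including BMI1 (0.46) and LRIG1 (0.50), and 1 lower, CDCA7 (-0.34). After centring 2 stem cell genes were higher, and with quantile scaling 1 was, where LRIG1 lost its call (adjusted p = 0.0589). Differentiation genes gave 3 of 9 higher and 0 lower: the colonocyte gene CA2 rose from 36.6 ± 1.22 to 63.0 ± 5.86 RPM (0.78, limma adjusted p = 2.76e-06), with GFI1 (0.46) and SYP (0.97). GFI1 lost its call under quantile scaling (adjusted p = 0.107). With DAXX siRNA, crotonate gave 1 of 18 cytoplasmic, 2 of 13 nuclear, 2 of 10 stem cell and 3 of 9 differentiation genes higher. Of these lists only the stem cell genes then held a lower call, 1 of 10 (CDCA7). Among all genes 13% were higher and 2.41% lower.

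**Figure D4:**
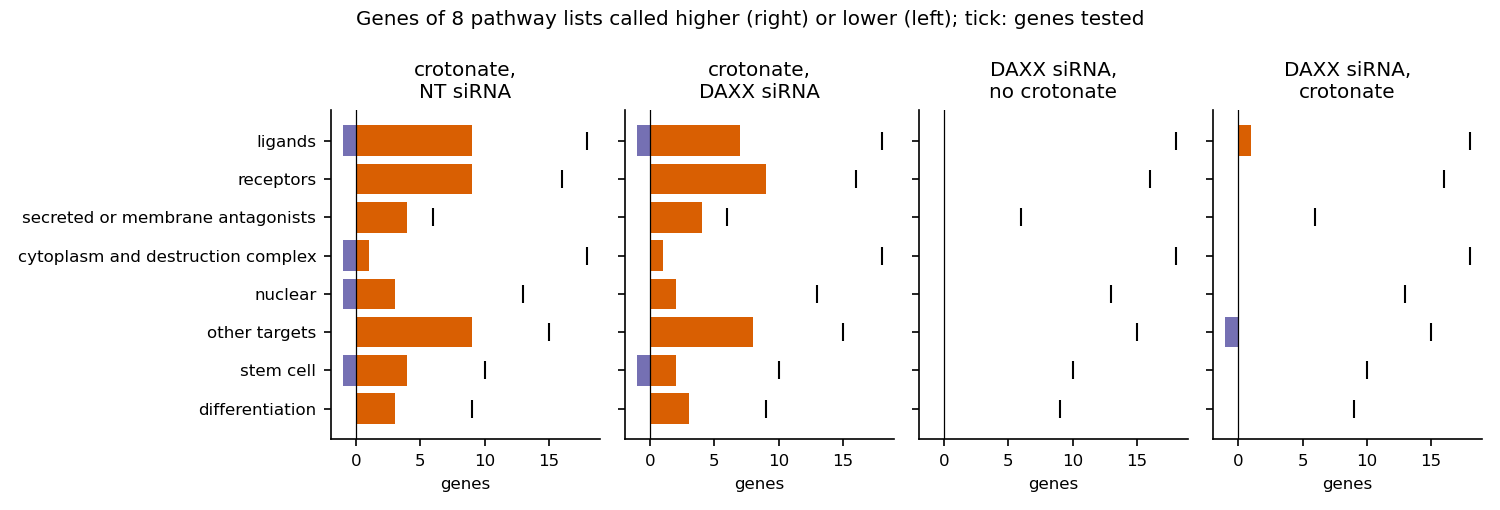
Number of genes (horizontal axes) in 8 pathway lists called higher (to the right of 0) or lower (to the left) in each of 4 comparisons, with a tick at the number tested. Bars are long for ligands, receptors and other targets with crotonate and nearly absent for DAXX siRNA.

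Calls for DAXX siRNA were few both in these lists and among all genes. Without crotonate 0 were called in any of the 8 lists, beside 0.1% of all genes higher and 0.306% lower, and the ligand gene WNT9A was called higher after centring (0.49, adjusted p = 0.0404) and with quantile scaling (0.48, adjusted p = 0.0393). With crotonate the ligand gene WNT9A was higher (9.32 ± 0.727 against 14.98 ± 1.71 RPM, log2 change 0.68, adjusted p = 0.00190) and CEMIP was lower (6.34 ± 0.574 against 3.36 ± 0.680 RPM, -0.93, adjusted p = 0.00465) in limma. These were 1 of 18 ligand genes and 1 of 15 target genes tested, beside 0.389% of all genes higher and 0.668% lower. In the averaged contrast the receptor genes FZD4 (-0.39, adjusted p = 0.00395) and LRP6 (-0.24, adjusted p = 0.0315), a Frizzled receptor and a Wnt co-receptor, were also lower, as were CEMIP (-0.78) and BCL9 (-0.24), which codes for a beta-catenin co-factor. Called higher were WNT9A (0.59), WNT16 (0.28), the cyclin gene CCND1 (0.27) and GFI1 (0.30), of which CCND1 lost its call with quantile scaling (adjusted p = 0.103). By list, 2 of 18 ligand, 1 of 15 target and 1 of 9 differentiation genes were higher in the averaged contrast. Lower were 2 of 16 receptor, 1 of 15 target and 1 of 13 nuclear genes. Among all genes 1.57% were higher and 2.23% lower.

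By the root mean square difference of centred log2 levels over the 4 group means, the genes most like NKD1 among 8297 candidates were RASSF2 (0.042), UCA1 (0.060) and TNFRSF6B (0.077). Those most like SOX9 were KIF3B (0.024), PANK3 (0.027) and SUMF1 (0.033). RASSF2 changed by 1.06 with crotonate and non-targeting siRNA and by 0.086 with DAXX siRNA alone. KIF3B changed by 0.25 and by -0.28 in the same comparisons.

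Kcr signal was given as scaled reads in regions, with libraries of 2226835 to 3639130 recovered reads in regions and 1719036 for the input. Libraries 1A and 1B of the same siRNA differed by no more than read sampling with non-targeting siRNA (ratio of chi-squared to its degrees of freedom 1.007, p = 0.132) and by slightly more with DAXX siRNA (1.012, p = 0.0251). They were counted as 1 sample, so n was 3 without and 2 with crotonate. Other pairs of a group gave 1.035 to 1.383. The 32 regions lay at ZNRF3 (16), NKD1 (9), TCF7 (3), ASCL2 (2) and LEF1 (2). Taking regions within 2 kb of the gene by coordinates, an alternative added after the regions were seen, gave 37, with 3 at RNF43, 1 at LGR5 and 1 downstream of DKK1 that carry another symbol or none. AXIN2 and SOX9 had none.

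Regions at gene starts were found both at genes with RNA and at genes nearly without it. RNF43, ZNRF3, LGR5, ASCL2 and TCF7 had a region within 2 kb of the start, which is 3 of the 7 genes with RNA above the filter and 2 of the 3 without. Over all genes the share was 68.5% of those tested in RNA and 9.85% of those without a read. LGR5, ASCL2 and LEF1 each had reads, so they are not in the class without a read. The share among all genes with reads below the filter was not computed. NKD1 and DKK1 had no region at the start, and the 9 NKD1 regions began 25755 bases or more inside the gene. The median log2 ratio of signal over input was 0.90 over the 32 regions and 0.90 over all regions. The ratio was 0.52 at the LGR5 start region and 0.80 at the ASCL2 start region. The LGR5 region, 0.6 kb long, carries the symbol of the overlapping gene TSPAN8. It averaged 10.5 scaled reads with non-targeting siRNA, against 7.41 in the input.

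No region of the set was called in any of the 4 Kcr comparisons by limma, in which 0% of all 49916 regions were called. With so few samples per group, a missing call does not show that Kcr was unchanged. With crotonate and non-targeting siRNA 2 of the 32 regions had an unadjusted p under 0.05 (13.3% of all regions), with crotonate and DAXX siRNA 3 (8.50%), and for DAXX siRNA 1 without crotonate (2.38%) and 0 with it (4.17%). The median log2 change with crotonate and non-targeting siRNA was -0.20 over the 32 regions and -0.19 over all regions. Limma-voom also called 0 regions of the set, and 1 of all regions, with crotonate and non-targeting siRNA.

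At the start of ZNRF3 (chromosome 22, 28881151 to 28885050) the scaled reads were 93.9 ± 11.1 with non-targeting siRNA (n = 3) and 61.7 ± 7.33 with crotonate (n = 2), against 39.2 in the input. The log2 change of -0.60 had an adjusted p of 0.247 in limma, beside a median change of -0.19 over all regions. At the start of RNF43 (chromosome 17, 58413451 to 58421400) the values were 179 ± 25.9 and 132 ± 3.24 against an input of 110.1 (-0.44, adjusted p = 0.336), and the RNA of both ligases changed by under 0.1 in that comparison. At the start of TCF7 (chromosome 5, 134110501 to 134118150) the largest change was with DAXX siRNA, from 175 ± 10.1 to 122 ± 0.0410 with crotonate (-0.51, adjusted p = 0.520), where TCF7 RNA rose by 0.35. At the start of ASCL2 (chromosome 11, 2269951 to 2272800) the values were 69.7 ± 4.00 with non-targeting siRNA and 51.8 ± 15.7 with DAXX siRNA (-0.47, adjusted p = 1.00), with no ASCL2 read in either RNA group.

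**Figure D5:**
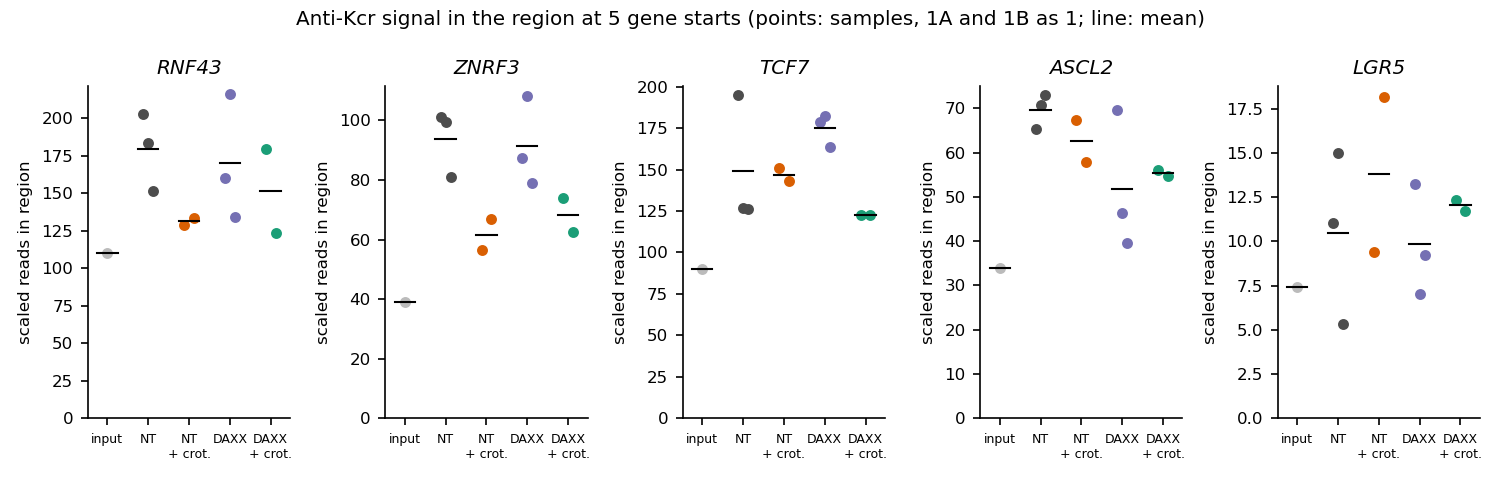
Scaled anti-Kcr reads (vertical axes, from 0) in the region at the start of 5 genes, for the input library and each sample of the 4 ChIP groups, with a line at the mean. The ZNRF3 mean with crotonate and non-targeting siRNA lies below that without crotonate, a change that was not called, and the LGR5 groups overlap.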

How the data were processed

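The submitters' processing notes name, for RNA, Trim Galore 0.6.2 and HISAT2 2.2.1, for ChIP, Trim Galore 0.6.5, Bowtie2 and MACS, and for both cutadapt 2.3 and GRCh38. The deposited RNA table holds log2 RPM, with 0 reads entered as 0.9 read, and the deposited ChIP table holds log2 scaled reads per region with the input as a separate column. Whole reads were recovered for 100% of values (tolerance 0.01 read). For the pooling of libraries into regions and the strand used in counting, the method is not given in the sources used here.

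Group means of the deposited log2 values were compared in limma (version 3.58.1, R 4.3.3) with the prior variance following the mean level, and p-values were adjusted by Benjamini-Hochberg over all features of a comparison; the planned count model gave way because the tables hold log2 values. RPM means were computed with 0 reads as 0. In the ChIP fit 1A and 1B were averaged and the input was left out. Limma-voom on recovered reads was added after the data were seen. Scripts used Python 3.11.15, and the fits were tested on simulated data, with a minimum share of recovered changes required for the RNA fit only. The genes and lists were chosen with earlier results of these data known. The naming rule took up to 4 called genes per list and comparison, by smallest adjusted p, and 3 genes most alike for 2 of the 10. Some genes that it takes are left out for length. Alternatives varied scaling, filter, offset, groups in the fit, the replicate block and single libraries.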

Additional observations from a re-analysis of the deposited data

Results flagged for a closer look

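In 7 of 34 groups of 4 libraries, a gene held a library that stood apart by Dixon's 95% criterion. For continuous values it flags about 1 in 20 groups by chance. For LGR5 without crotonate under either siRNA, and LEF1 with crotonate and DAXX siRNA, the other libraries had 0 reads. Any read is flagged in such a group, so 7 of 34 cannot be set against that rate. AXIN2 in library 3 of non-targeting siRNA was the lowest of its group at 21.8 RPM. DKK1 in library 2 of non-targeting siRNA with crotonate was the lowest at 470.2 RPM, still above every library without crotonate. TCF7 in library 4 of DAXX siRNA was the highest at 26.8 RPM. The other flags rest on few reads: LGR5 at 0.222 RPM (12 reads) in library 3 of non-targeting siRNA with crotonate, 0.122 RPM (5 reads) in library 4 of non-targeting siRNA and 0.0284 RPM (1 read) in library 3 of DAXX siRNA, and LEF1 at 0.0225 RPM (1 read) in library 3 of DAXX siRNA with crotonate.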

How the results depend on the processing

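Of 770 alternative values for the RNA changes of single genes, 708 kept their direction and side of the threshold, 32 lost a call, 9 gained one and 21 changed sign; of 204 for the regions at gene starts, 26 changed sign and none was called. With crotonate and non-targeting siRNA, centring on the median gene left 2 genes higher and 1 lower. For DAXX siRNA with crotonate, 2 genes were lower under quantile scaling, without the filter and with the replicate block, and 0 to 1 when leaving out a library; the averaged contrast gave 2 to 4 lower. Deviations of libraries with the same replicate number were weakly correlated. In RNA 24 same-number pairs had r -0.25 to 0.19 (median 0.065, against -0.024 for other pairs), with 5 over 0.1. In ChIP 13 pairs had r -0.0015 to 0.095 (median 0.047, against -0.024), with 0 over 0.1. Of the RNA libraries 10 of 16, and of the ChIP samples 9 of 10, deviated most like their own number. The main fit has no block, so any such pairing is left out of it. In the block fit AXIN2 was called higher with crotonate and DAXX siRNA (limma adjusted p = 0.0363). RNF43 was called lower there for DAXX siRNA with crotonate (0.0430). With the block 410 of all Kcr regions were lower with crotonate and non-targeting siRNA (97 with 1A and 1B apart) and 3 with DAXX siRNA, and 395 were lower with DAXX siRNA without its crotonate replicate 2, none of them in the set.

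With centring ZNRF3 under crotonate became -0.030 with non-targeting and -0.010 with DAXX siRNA. The RNF43 interaction became -0.0049 with quantile scaling. When leaving out a library, the DAXX siRNA effect with crotonate spanned -0.011 to 0.062 for AXIN2 and -0.071 to 0.028 for NKD1, and the interaction spanned -0.014 to 0.045 for RNF43, -0.033 to 0.069 for ZNRF3 and -0.15 to 0.016 for TCF7.

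At gene starts, the RNF43 crotonate effect with DAXX siRNA became 0.025 with quantile scaling and 0.058 with limma-voom. The LGR5 effect of DAXX siRNA without crotonate became 0.056 with 1A and 1B apart and 0.086 with limma-voom. The ASCL2 crotonate effect with non-targeting siRNA became 0.014 with centring, 0.075 with quantile scaling and 0.14 with limma-voom, and that of TCF7 became -0.098 with 1A and 1B apart. When leaving out a sample, the start region effects spanned -0.43 to 0.11 (crotonate with DAXX siRNA), -0.28 to 0.064 (DAXX siRNA) and -0.087 to 0.45 (DAXX siRNA with crotonate) for RNF43, and -0.17 to 0.058 (DAXX siRNA) for ZNRF3. For LGR5 they spanned -0.025 to 0.92 (crotonate with non-targeting siRNA), -0.44 to 0.31 (DAXX siRNA) and -0.59 to 0.35 (DAXX siRNA with crotonate), for ASCL2 -0.034 to 0.37 (crotonate with DAXX siRNA) and for TCF7 -0.099 to 0.21 (crotonate with non-targeting siRNA). The cause of these changes was not tested. The LGR5 start region held a mean of 10.5 scaled reads with non-targeting siRNA.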
